A study of Mus musculus with 24 samples.

Results

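Mll1-deleted cultures of subventricular zone cells were compared with wild-type cultures on day 2 of differentiation. The 6 arrays were chosen by the genotype and time point in the sample labels, with no measured value used, out of 24 arrays in all. Each array was taken to hold the RNA of 1 culture from 1 mouse. Mice 489, 814 and 858 gave the Mll1-deleted cultures, and mice 818, 862 and 870 the wild-type ones. The other 18 arrays hold the same 6 mice on days 0, 1 and 4.

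All cultures were grown as neural stem cells over several passages in a medium with fetal bovine serum, N2 supplement, bovine pituitary extract, epidermal growth factor (EGF) and fibroblast growth factor (FGF). Differentiation was started by changing to a serum-free medium with N2 supplement and bovine pituitary extract, in which neither growth factor is listed. Both genotypes had therefore spent 2 days in the same medium. The mouse strain, the animals' age and sex, the driver of the deletion and the deleted exons are not given in the sources used here, nor is any allele that the wild-type mice may carry.

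The subventricular zone lines the lateral ventricles of the mouse forebrain, and its stem cells give rise to neuroblasts that become inhibitory interneurons of the olfactory bulb, and also to oligodendrocytes and astrocytes. Mll1, now named Kmt2a, is a histone H3 lysine 4 methyltransferase of the trithorax group that holds target genes in an active state. Dlx transcription factors drive the interneuron programme of this region. Pou3f4, also called Brn4, is a POU-domain factor of the developing nervous system.

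Levels are given as the linear intensities that the authors deposited, in arbitrary units, in the order of mice 489, 814 and 858 for Mll1-deleted cultures and 818, 862 and 870 for wild-type cultures. Intensities of different genes come from different probes and were not set against each other. A difference is the log2 intensity of Mll1-deleted minus wild-type cultures, ± its standard error, from a limma fit over all 21072 genes. The standard error draws on the spread within groups over all 24 arrays, so it is not the spread of the day 2 arrays alone. A gene was called higher or lower at a Benjamini-Hochberg adjusted p under 0.05. The lower quartile of an array averaged 26.1 units in Mll1-deleted and 26.9 units in wild-type cultures, and a group mean below it was taken as near the floor. Each group has 3 arrays, and their number limits the precision.

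Kmt2a, the gene named in the labels, was not lower in Mll1-deleted cultures. Its probe set read 610, 605 and 682 units in Mll1-deleted cultures, against 560, 648 and 570 units in wild-type cultures. The groups overlapped, and the difference of 0.09 ± 0.13 was not called (limma adjusted p = 0.77). On the other days its difference was also above 0, and it was called on day 0 (0.48 ± 0.13, limma adjusted p = 0.018) and not on days 1 and 4 (0.31 and 0.36). A probe set that the files assign to both Ttc36 and Mll1 differed by -0.06 ± 0.14. Whether either set covers the deleted exons is not known here, so neither checks the labels.

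The labelled cell type was checked against markers. The neural stem cell markers Sox2 (3797 to 4340 units in Mll1-deleted and 3564 to 4006 units in wild-type cultures) and Vim (11630 to 13270 units in Mll1-deleted and 10830 to 11610 units in wild-type cultures) were bright in all 6 arrays and were not called. They were chosen after their values were seen, and 12 of the 19 measured genes of the stem cell list were called. None of the 15 microglial and none of the 10 endothelial markers was called. The summed level of the microglial list was 630 to 654 units in Mll1-deleted and 628 to 642 units in wild-type cultures, with Aif1 and Csf1r between 21.5 and 32.3 units in every array. The endothelial list summed to 522 to 560 units in Mll1-deleted and 473 to 537 units in wild-type cultures, with Pecam1 between 24.7 and 38.9 units in every array. Without mouse 858, 1 endothelial gene was called.

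The arrays within a group correlated with each other over all genes at an r of 0.9912 to 0.9949 in Mll1-deleted and 0.9908 to 0.9945 in wild-type cultures. The culture of Mll1-deleted mouse 858 stood apart in Xist, the RNA of the inactive X chromosome, which was at 24.4 units there, against 1468 and 1161 units in the other Mll1-deleted cultures and 693 to 1439 units in the wild-type ones. The Y-linked genes Ddx3y, Eif2s3y, Kdm5d and Uty read between 6.38 and 19.7 units in all 6 arrays. For several of the genes below, mouse 858 also lay nearest to the wild-type cultures among the Mll1-deleted ones.

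On day 2, 1842 of the 21072 genes were called (8.74%), 845 higher (4.01%) and 997 lower (4.73%) in Mll1-deleted cultures. The median difference over all genes was -0.03. Of the 1842 called genes, 1802 had no overlap between the groups, so a lack of overlap adds little to a call. The count fell to 911 without mouse 489, to 1126 without mouse 814, to 935 without mouse 818 and to 1124 without mouse 870, and was 2259 without mouse 858 and 1375 without mouse 862. Of the 1842 genes, 674 were also called under each of the 15 alternatives that included them. The 6 arrays are bulk RNA, in which fewer cells of a type and less RNA per cell cannot be told apart.

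**Figure D1:**
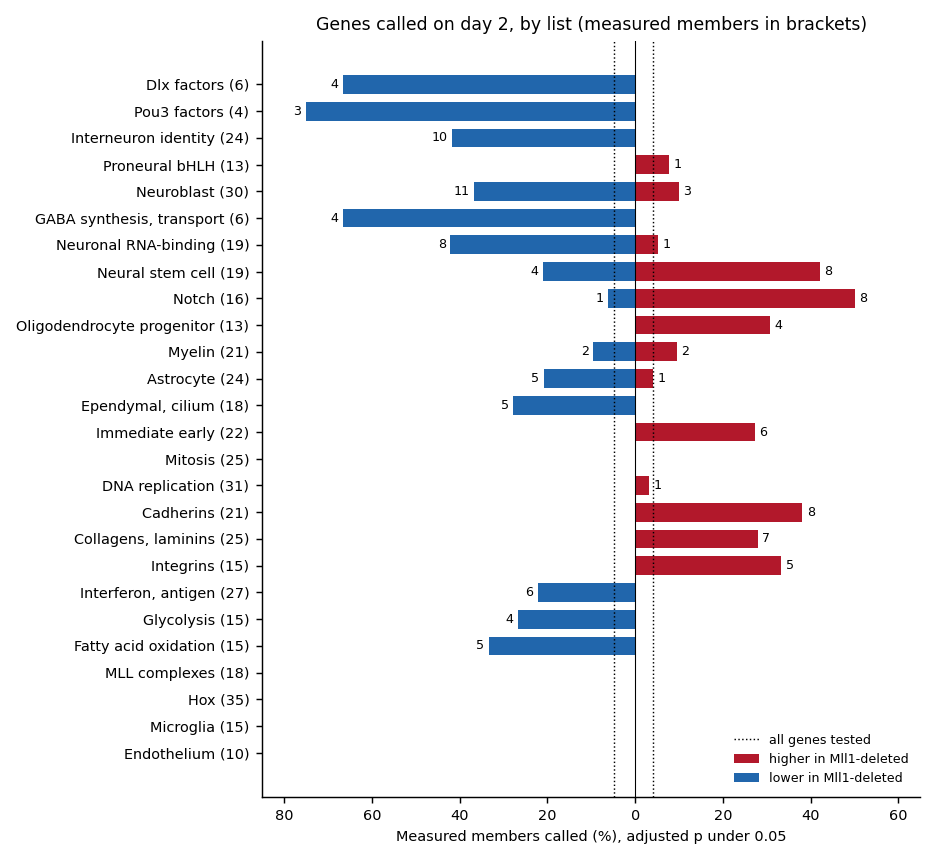
Share of the measured members of 26 gene lists that were called higher (red, to the right) or lower (blue, to the left) in Mll1-deleted than in wild-type cultures on day 2, in percent, with the number of genes beside each bar and the number measured in brackets. Dotted lines mark the shares over all genes tested, 4.01% higher and 4.73% lower. Dlx, Pou3 and GABA genes lie on the left, and Notch, cadherin and collagen genes on the right.

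Among the genes called higher without overlap between the groups, the difference was largest for Steap4, a metalloreductase that inflammation induces in several tissues, and for Spp1, the secreted matrix protein osteopontin. Steap4 read 1396, 1798 and 162 units in Mll1-deleted cultures, against 47.7, 50.9 and 44.6 units in wild-type cultures (3.96 ± 0.67, limma adjusted p = 0.00043). Spp1 read 1163, 1113 and 218 units in Mll1-deleted cultures, against 32.6, 61.5 and 43.2 units in wild-type cultures (3.89 ± 0.53). In Steap4 the wild-type cultures lay close together, in Spp1 less so. For both genes mouse 858 was far below the other Mll1-deleted mice. Its place above every wild-type mouse was fixed by the choice of genes without overlap.

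Shisa3, whose product holds Wnt and FGF receptors in the endoplasmic reticulum in other species such as the frog, differed by 3.19 ± 0.29. Lrrc4c, a postsynaptic adhesion protein that binds netrin-G, differed by 3.01 ± 0.26. The next were Col8a1, a short-chain collagen (2.62 ± 0.43), Matn2, a matrilin of the matrix (2.60 ± 0.25), Gxylt2, a xylosyltransferase that modifies Notch (2.44 ± 0.39), and Ecrg4, a secreted peptide precursor (2.42 ± 0.31). Bche, a cholinesterase, Lpar1, a receptor for lysophosphatidic acid, and Sprr1a, a protein induced in injured neurons, differed by 2.34 ± 0.25, 2.30 ± 0.21 and 2.16 ± 0.36. These calls held under each of the 15 alternatives.

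Among the genes called lower, Cyp2d22, a cytochrome P450, differed most. It read 114, 166 and 193 units in Mll1-deleted cultures, against 1072, 1483 and 1410 units in wild-type cultures (-3.09 ± 0.19, limma adjusted p = 1.7e-09). Cldn10, a claudin of tight junctions, read 132, 66.4 and 139 units in Mll1-deleted cultures, against 869, 940 and 902 units in wild-type cultures (-3.08 ± 0.30). Its second probe set gave -2.70 ± 0.28. Both were picked from the called genes without overlap, and the groups lay far apart. The Mll1-deleted cultures spread from 114 to 193 units in Cyp2d22 and from 66.4 to 139 units in Cldn10.

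The remaining genes of the 12 lowest included Dcx (-2.99 ± 0.53), the microtubule protein of migrating neuroblasts, Dlx1as (-2.96 ± 0.38), an RNA antisense to Dlx1, Shtn1 (-2.63 ± 0.38), a shootin of growing axons, Gabrb1 (-2.59 ± 0.21), a GABA-A receptor subunit, Tagln3 (-2.51 ± 0.24), Gad2 (-2.38 ± 0.35), a GABA-synthesising enzyme, and Dlx5 (-2.24 ± 0.39). Pla2g7, a secreted phospholipase (-2.33 ± 0.34), Ccdc190 (-2.22 ± 0.25) and Traf1, an adaptor of TNF receptors (-2.20 ± 0.22), completed them. Dlx1as lies on the strand opposite Dlx1, and how far its probes separate the strands was not tested.

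Of the 6 measured Dlx factors, 4 were called lower and none higher, with a median difference of -0.87. Dlx5 read 94.3, 214 and 486 units in Mll1-deleted cultures, against 1135, 961 and 948 units in wild-type cultures. Dlx1 read 401, 673 and 1212 units in Mll1-deleted cultures, against 2662, 2014 and 1841 units in wild-type cultures (-1.64 ± 0.38). Dlx2, which with Dlx1 starts the interneuron programme, read 414, 718 and 970 units in Mll1-deleted cultures, against 1732, 1234 and 1199 units in wild-type cultures (-1.05 ± 0.29). In all 3 genes mouse 489 was lowest and mouse 858 highest among the Mll1-deleted cultures. None of these cultures reached the wild-type range, as in nearly all called genes.

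Dlx6, the neighbour of Dlx5, read 63.6, 74.3 and 95.5 units in Mll1-deleted cultures, against 165, 128 and 89.4 units in wild-type cultures (-0.69 ± 0.20), so that the groups overlapped. Dlx3 and Dlx4, which act mainly outside the forebrain, differed by -0.23 ± 0.15 and -0.05 ± 0.12 and were not called. Leaving out 1 mouse changed this count: 2 Dlx genes were called without mouse 489, 814 or 862, 1 without mouse 818 and 3 without mouse 870. The Dlx2 call was lost without any 1 of mice 489, 814, 818, 862 and 870, the Dlx1 call without mouse 818, and the Dlx6 call without mouse 489, 814, 818 or 862 and on the day 2 arrays alone.

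Of the 4 Pou3 factors, 3 were lower (median -0.73). Pou3f4 read 164, 274 and 274 units in Mll1-deleted cultures, against 1239, 910 and 849 units in wild-type cultures (-2.09 ± 0.19, limma adjusted p = 3.8e-07), a fall to 0.235 of the wild-type level. Here mouse 858 was no nearer to the wild-type cultures than mouse 814. Pou3f2 (Brn2) differed by -0.71 ± 0.17 and Pou3f3 (Brn1) by -0.76 ± 0.14, both neuronal POU factors, while Pou3f1 was not called (-0.09 ± 0.09). Without mouse 489 or 818 the Pou3f2 call was lost.

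The 250 bases before the RefSeq start of Pou3f4 are shown because it is the regulator with the smallest adjusted p in these families. It lies at chrX:110814129-110814378 on the + strand of GRCm38.p6, with its CG dinucleotides in capitals.
Pou3f4: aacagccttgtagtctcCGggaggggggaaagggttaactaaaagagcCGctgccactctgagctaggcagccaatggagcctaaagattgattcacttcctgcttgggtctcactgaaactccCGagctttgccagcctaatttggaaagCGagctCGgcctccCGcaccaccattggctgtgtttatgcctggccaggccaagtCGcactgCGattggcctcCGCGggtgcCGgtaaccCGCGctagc
The stretch holds 13 CG. CG dinucleotides are the sites that the CXXC domain of MLL1 binds when they are unmethylated. Over the 15363 tested genes with such a stretch in the table used, the median was 11 CG (quartiles 3 and 20). It was 17 CG for the 634 genes called higher and 13 CG for the 751 called lower that have one. These counts are descriptions of sequence and say nothing of binding.

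**Figure D2:**
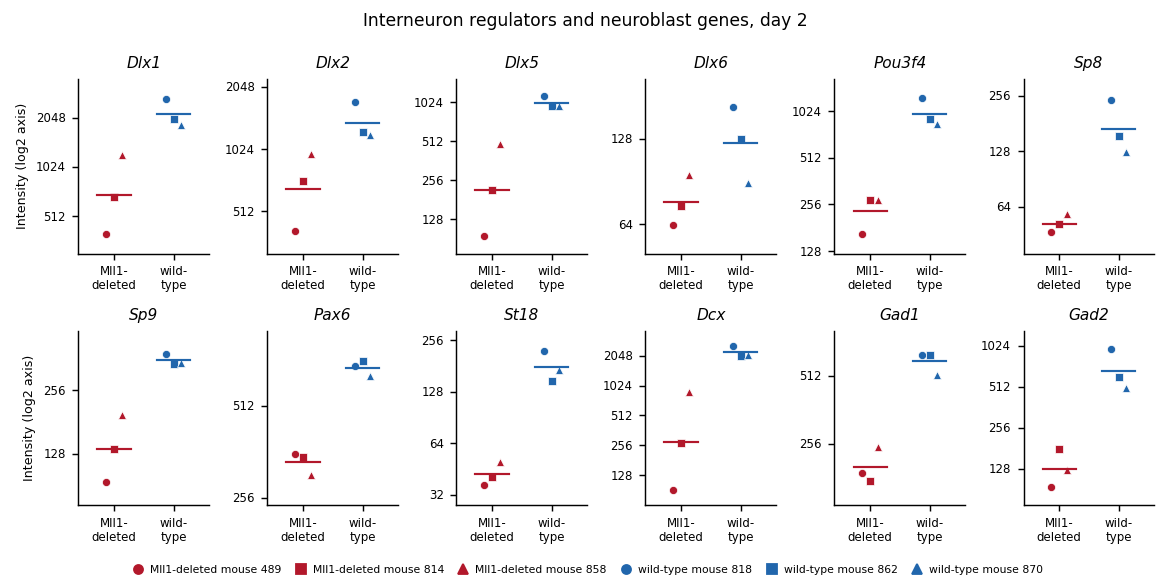
Intensity on day 2 (log2 axis) of 12 interneuron regulators and neuroblast genes, 1 point per array, with the Mll1-deleted cultures (red) left of the wild-type cultures (blue). Marker shapes tell the mice apart and horizontal bars are means of log2 values. The groups overlap in Dlx6 and are apart in the other panels, as in 1802 of the 1842 called genes.

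Of 24 measured genes that mark olfactory bulb interneurons, 10 were called lower, none was called higher and 14 were not called, with a median difference of -0.42. Sp8, a zinc finger factor needed by several of these interneuron classes, read 46.4, 51.2 and 58.3 units in Mll1-deleted cultures, against 242, 154 and 127 units in wild-type cultures (-1.70 ± 0.23). Pax6, which directs dopaminergic and other periglomerular cells, read 356, 349 and 303 units in Mll1-deleted cultures, against 691, 721 and 642 units in wild-type cultures (-1.03 ± 0.11). In each of these the groups were apart, as in 1802 of the 1842 called genes.

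Calb2, the calcium-binding protein calretinin of the most numerous periglomerular cells, was near the floor in Mll1-deleted cultures (18.1, 16.6 and 20.2 units, against 87.8, 73.6 and 52.9 units in wild-type cultures) and was at least 2.68-fold lower there. Among the other members called lower were Bcl11a (-1.80), Sp9 (-1.39), Prox1 (-1.29), Scrt1 (-1.04), Bcl11b (-1.02) and Meis2 (-0.83). The count was 10 or 11 on leaving out any 1 mouse. A second Pax6 probe set gave -0.52 ± 0.16 (limma adjusted p = 0.039).

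The 3 Myt1-type zinc finger factors, which act in neuronal differentiation, all had differences below 0. St18 read 36.5, 40.7 and 50.0 units in Mll1-deleted cultures, against 221, 148 and 171 units in wild-type cultures (-2.08 ± 0.23). Myt1l was lower as well (-0.98 ± 0.16), and Myt1 was not called (-1.06 ± 0.35, limma adjusted p = 0.061). Of 20 regional factors of the forebrain, 6 were lower and none higher (median -0.26), led by Vax1, a ventral homeobox factor (139, 215 and 191 units in Mll1-deleted cultures, against 1052, 428 and 462 units in wild-type cultures, -1.73 ± 0.23). Wild-type mouse 818 was far above the other wild-type mice in Vax1. That count was 2 without mouse 489, 3 without mouse 814 or 870, and 1 without mouse 818.

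Of 13 proneural basic helix-loop-helix factors, which commit progenitors to the neuronal fate, 1 was higher and none lower, a share near that over all genes. It was Tcf12, a broadly present partner of such factors (0.55 ± 0.10). The list median was 0.02. None of the 4 nuclear factor I genes was called (median 0.02), and 1 was called without mouse 858.

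Of 30 neuroblast genes, 11 were lower and 3 higher, with a median of -0.50. Dcx read 90.8, 271 and 879 units in Mll1-deleted cultures, against 2563, 2040 and 2083 units in wild-type cultures (limma adjusted p = 0.00072). Tubb3, neuronal beta-tubulin, read 462, 608 and 1094 units in Mll1-deleted cultures, against 2963, 1785 and 1890 units in wild-type cultures (-1.68 ± 0.32). Both genes ran in the order of mice 489, 814 and 858 among Mll1-deleted cultures. As in nearly all called genes, these did not reach the wild-type range.

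Nrxn3, a presynaptic adhesion protein, Igfbpl1, a secreted protein of young neurons, and Plxna4, a semaphorin receptor, differed by -1.85 ± 0.27, -1.57 ± 0.14 and -1.89 ± 0.22. The 3 members called higher were Fxyd6 (0.87 ± 0.19), a regulator of the sodium pump, St8sia2 (0.74 ± 0.22), which builds polysialic acid, and Dclk1 (0.51 ± 0.15), a kinase related to Dcx. The neuroblast count was 8 without mouse 818 and between 10 and 15 without any other mouse. The Fxyd6 call was lost without mouse 489 or 862, the St8sia2 call without mouse 814, 818, 858, 862 or 870, and the Dclk1 call without mouse 489, 818, 858 or 870.

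Of 19 neuronal RNA-binding proteins, 8 were lower and 1 higher (median -0.32). Elavl4 and Elavl3, which stabilise neuronal messages, differed by -2.0 ± 0.30 and -1.80 ± 0.33. Srrm4, which drives the splicing of neuronal microexons, read 41.1, 40.5 and 56.1 units in Mll1-deleted cultures, against 105, 90.6 and 94.4 units in wild-type cultures (-1.09 ± 0.15). Celf4 differed by -1.43 ± 0.26. The member called higher was Nova1, a splicing factor (1.04 ± 0.21), whose second probe set gave 1.45 ± 0.31. Without mouse 489 or mouse 818, 5 genes of this list were called.

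Of 6 genes for making, packing, taking up and breaking down GABA, the transmitter of these interneurons, 4 were lower and none higher (median -1.42), and that count was 4 on leaving out any 1 mouse. Gad1, the main enzyme of GABA synthesis, read 189, 174 and 247 units in Mll1-deleted cultures, against 635, 635 and 519 units in wild-type cultures (-1.56 ± 0.20). Gad2 read 93.5, 179 and 127 units in Mll1-deleted cultures, against 981, 605 and 500 units in wild-type cultures. Slc32a1, the vesicular GABA transporter, differed by -1.28 ± 0.18. In these genes no Mll1-deleted culture came within the wild-type range, as in 1802 of the 1842 called genes.

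Slc6a11, a GABA transporter carried largely by astrocytes, read 242, 271 and 228 units in Mll1-deleted cultures, against 775, 922 and 955 units in wild-type cultures (-1.84 ± 0.19). Abat, which breaks GABA down, was not called (-0.07 ± 0.16). Among 28 glutamate and GABA receptor genes, 6 were lower and 3 higher, with a median of -0.06. The AMPA receptor subunit Gria1 differed by -2.05 ± 0.24, and the GABA-A subunits Gabrb1, Gabrg1 and Gabra4 by -2.59 ± 0.21, -1.35 ± 0.23 and -1.02 ± 0.21. Without mouse 818, 5 receptor genes were called.

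Synapse and channel genes were called in both directions. Of 29 synapse genes, 3 were lower (Snap25 -1.05 ± 0.20, Syn1 -0.76 ± 0.16, Rab3c) and 1 higher (Pclo 0.53 ± 0.14), with a median of -0.24. Rab3c, a vesicle GTPase near the floor in Mll1-deleted cultures, was at least 1.34-fold lower there. The Syn1 call was lost without mouse 818 and the Pclo call without mouse 862 or 870, and 8 genes were called without mouse 858. Of 27 channel genes, 5 were higher and 3 lower, with a median of -0.03. The calcium channel auxiliary subunits Cacna2d1 (1.18 ± 0.21) and Cacna2d3 (1.14 ± 0.19) were higher, and the pore-forming subunit Cacna1c was lower (-1.11 ± 0.23). Without any 1 of mice 489, 814, 818, 862 and 870, 5 channel genes were called.

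Neural stem cell genes moved in both directions. Of 19 measured, 8 were higher and 4 lower, with a median of 0.18. Nes, the intermediate filament nestin of progenitors, read 1892, 2045 and 1385 units in Mll1-deleted cultures, against 575, 486 and 495 units in wild-type cultures (1.76 ± 0.19, limma adjusted p = 2.3e-06). Egfr, the receptor through which EGF keeps progenitors dividing, read 1537, 1823 and 1116 units in Mll1-deleted cultures, against 636, 957 and 926 units in wild-type cultures (0.82 ± 0.24). The groups were apart in both genes, as in 1802 of the 1842 called genes.

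Lower in Mll1-deleted cultures were Prom1 (-0.74 ± 0.15), the prominin of stem cell membranes, Hopx (-0.87 ± 0.18), which marks quiescent astrocyte-like stem cells, Nr2e1 (-0.89 ± 0.20), the stem cell receptor Tlx, and Thbs4 (-0.43). The stem cell count was 8 without mouse 489, 5 without mouse 814 and 6 without mouse 818, 862 or 870. The Egfr call was lost without any 1 of mice 489, 814, 818, 862 and 870, and the Nr2e1 call without mouse 862. The Thbs4 call was lost without any 1 of the same 5 mice as that of Egfr. Among 8 EGF and FGF receptor genes, Fgfr3 was higher besides Egfr (0.51 ± 0.13) and Fgfr2 lower (-0.53 ± 0.13), with a list median of -0.02. The Fgfr3 call was lost without mouse 818 or 870 and the Fgfr2 call without mouse 818 or 862. None of the 8 was called without mouse 818, and 1 without mouse 862 or 870.

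Notch genes were called higher more often than lower. In this pathway a ligand on one cell binds the receptor on the next and triggers its cleavage by proteases, and the freed receptor fragment joins the DNA-binding protein RBPJ to switch on Hes and Hey repressors. Of 16 measured genes, 8 were higher and 1 lower, with a median of 0.45. Without mouse 818, 4 were called, and 5 without mouse 814 or 870.

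Among the ligands, Dll1 read 282, 342 and 348 units in Mll1-deleted cultures, against 134, 169 and 120 units in wild-type cultures (1.21 ± 0.19). Jag1 was higher too (0.97 ± 0.29), a call lost without mouse 489, 818, 862 or 870, without the replicate block, and with 16 units added before log2. Of the receptors, Notch3 differed by 0.83 ± 0.16 and Notch1 by 0.56 ± 0.15. The Notch1 call was lost without mouse 489, 814, 818 or 870. Among the targets, Hes1 read 262, 302 and 204 units in Mll1-deleted cultures, against 95.2, 115 and 111 units in wild-type cultures (1.25 ± 0.19).

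Hes5 read 321, 403 and 468 units in Mll1-deleted cultures, against 186, 198 and 226 units in wild-type cultures (0.95 ± 0.24). Hey2 read 81.5, 111 and 155 units in Mll1-deleted cultures, against 47.6, 39.6 and 43.5 units in wild-type cultures (1.37 ± 0.28). No Mll1-deleted culture overlapped the wild-type ones in any of the 3 targets, as in 1802 of the 1842 called genes. Nrarp, a feedback inhibitor, was higher (0.55 ± 0.16), and Mfng, a fringe glycosyltransferase, lower (-0.74 ± 0.23). The Hes5 call was lost without mouse 814, 818 or 862. The Nrarp call was lost without mouse 814, 818, 858, 862 or 870 and the Mfng call without mouse 489, 814, 818 or 870, and both were lost without the replicate block and on the day 2 arrays alone. The Mfng call was also lost with all arrays set to the same median.

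The 250 bases before the starts of Hes5 and Hey2 are shown because these targets were called higher and their stretches hold the letters TGGGAA, the core of sites that RBPJ is known to bind. The Hes5 stretch lies at chr4:154960673-154960922 on the + strand and that of Hey2 at chr10:30842784-30843033 on the - strand of GRCm38.p6 (RefSeq), with TGGGAA or its reverse complement in capitals.
Hes5: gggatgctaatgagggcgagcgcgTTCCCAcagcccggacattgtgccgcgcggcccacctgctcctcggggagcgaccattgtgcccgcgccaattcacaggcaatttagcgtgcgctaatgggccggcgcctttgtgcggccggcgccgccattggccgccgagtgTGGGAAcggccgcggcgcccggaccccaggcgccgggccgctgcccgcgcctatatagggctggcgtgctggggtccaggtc
Hey2: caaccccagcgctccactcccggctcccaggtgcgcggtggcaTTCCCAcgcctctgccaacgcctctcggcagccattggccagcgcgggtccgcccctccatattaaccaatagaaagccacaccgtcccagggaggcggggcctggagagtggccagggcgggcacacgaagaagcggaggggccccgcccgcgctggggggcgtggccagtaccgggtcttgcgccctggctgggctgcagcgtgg
Hes5 has 2 matches, which begin 226 and 82 bases before the start, and Hey2 has 1, 207 bases before it. Searched on both strands, the letters occur in 3 of the 12 Notch genes that have a stretch in the table, in 19.2% of the genes called higher, in 18.1% of those called lower and in 21.0% of all 15363. A match is a description of the letters and not a site.

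**Figure D3:**
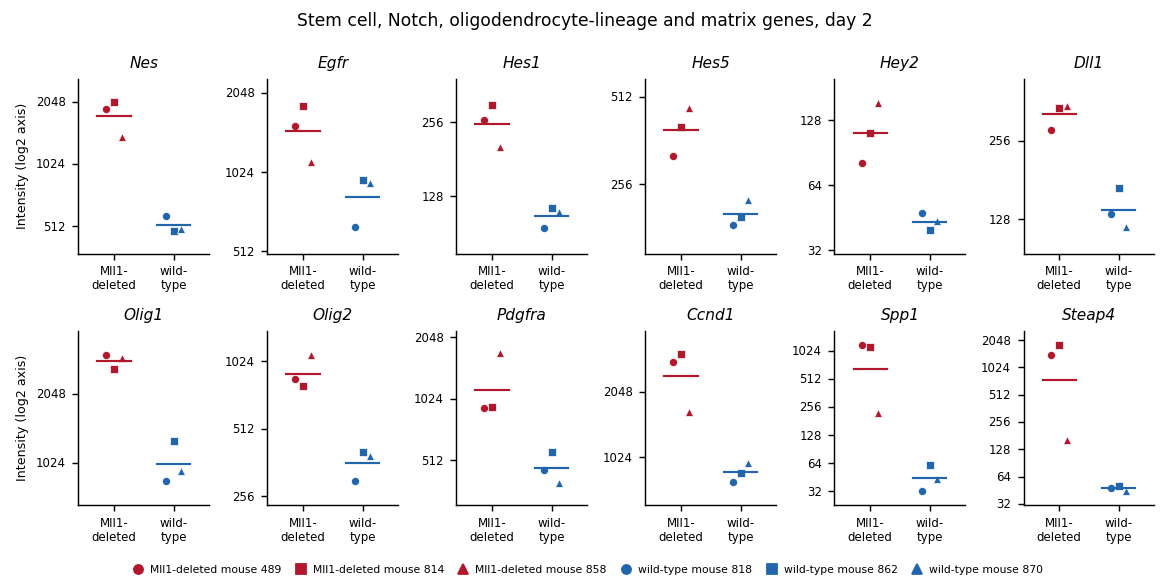
Intensity on day 2 (log2 axis) of 12 stem cell, Notch, oligodendrocyte-lineage, cyclin and matrix genes, 1 point per array, with the Mll1-deleted cultures (red) left of the wild-type cultures (blue). Shapes tell the mice apart and horizontal bars are means of log2 values. All 12 are higher in Mll1-deleted cultures without overlap, and 1802 of all 1842 called genes lack overlap. Mouse 858 lies low in Spp1 and Steap4 and high in Pdgfra.

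Of 13 genes of oligodendrocyte progenitors, 4 were higher, none was lower and 9 were not called (median 0.32). Olig1 read 3018, 2624 and 2931 units in Mll1-deleted cultures, against 855, 1274 and 942 units in wild-type cultures (1.50 ± 0.18). Olig2, which with Olig1 specifies this lineage and is also present in transit-amplifying cells, read 851, 790 and 1092 units in Mll1-deleted cultures, against 299, 404 and 389 units in wild-type cultures (1.32 ± 0.16). Sox8 differed by 1.24 ± 0.20. In these genes the groups were apart, as in 1802 of the 1842 called genes, and every Mll1-deleted mouse was high.

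Pdgfra, the growth factor receptor of these progenitors, read 923, 935 and 1709 units in Mll1-deleted cultures, against 459, 561 and 399 units in wild-type cultures (1.28 ± 0.31), a call lost without mouse 818 or 870. Sox10, which marks committed cells of the lineage, read 157, 133 and 312 units in Mll1-deleted cultures, against 113, 117 and 126 units in wild-type cultures and was not called (0.66 ± 0.22, limma adjusted p = 0.072). Gpr17, a receptor of cells about to mature, was not called either (0.32 ± 0.48), with mouse 858 at 439 units and the other 5 cultures between 66.9 and 178 units. The list median of mouse 858 stood 1.05 above the wild-type mean on the log2 scale, against -0.08 and -0.16 for mice 489 and 814. So Olig1, Olig2 and Sox8 were high in all 3 Mll1-deleted cultures, while most of the list was high in mouse 858.

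Among 21 myelin and later oligodendrocyte genes, 2 were higher and 2 lower, with a median of 0.03. Gjc3, a connexin that was near the floor in wild-type cultures, was at least 2.21-fold higher in Mll1-deleted cultures, and Tcf7l2, a Wnt effector of maturing oligodendrocytes, differed by 0.63 ± 0.13. Mal and Tspan2, membrane proteins of myelin, differed by -0.66 and -0.68. The Mal call was lost without mouse 814, 858, 862 or 870. The Tspan2 call was lost without mouse 489, 818 or 870, without the replicate block, on the day 2 arrays alone, with arrays set to the same median and with 16 units added before log2. Without mouse 870, 2 myelin genes were called. Of 14 Sox factors, 3 were higher (Sox8, Sox6 0.47 ± 0.12 and Sox3 0.39 ± 0.12) and none lower (median 0.04), with 1 called without mouse 489 or 818. The Sox6 call was lost without mouse 489, 818 or 858, and the Sox3 call without any 1 of the 6 mice and after quantile normalisation. Both were lost on the day 2 arrays alone.

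Cell cycle genes did not move together, and over all genes 8.74% were called. None of 25 mitosis genes was called (median 0.01), and 1 of 31 DNA replication genes was, Ccne1, a cyclin of S phase entry (0.70 ± 0.16), which was lost without mouse 489 or 818 (list median -0.05). Without mouse 858, 2 replication genes were called. Mki67, a marker of cycling cells, read 655, 1013 and 878 units in Mll1-deleted cultures, against 919, 881 and 639 units in wild-type cultures, with full overlap. Of 10 D cyclin and CDK inhibitor genes, 2 were higher and 2 lower (median 0.21). Ccnd1, which carries growth factor signals into the cycle, read 2815, 3046 and 1652 units in Mll1-deleted cultures, against 792, 869 and 965 units in wild-type cultures (1.47 ± 0.27).

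Cdkn1b, the inhibitor p27, read 482, 580 and 527 units in Mll1-deleted cultures, against 1052, 953 and 836 units in wild-type cultures (-0.84 ± 0.12), though its second probe set was not called (-0.44 ± 0.18). Cdkn1a, the inhibitor p21, was higher (0.82 ± 0.23) and Ccnd2 lower (-0.38 ± 0.12). The Cdkn1a call was lost without mouse 489, 814, 818, 862 or 870, and Ccnd2 without mouse 489, 818, 858, 862 or 870, and both on the day 2 arrays alone and without the replicate block. The Ccnd2 call was also lost after quantile normalisation and with arrays set to the same median. The list had 2 calls without mouse 489, 818, 862 or 870.

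Feedback genes of growth factor signalling and immediate early genes were more often higher. Of 16 feedback genes 5 were higher and 1 lower (median 0.13), and of 22 immediate early genes 6 were higher and none lower (median 0.27). Btg2, an antiproliferative early gene that p53 also induces, read 526, 694 and 522 units in Mll1-deleted cultures, against 186, 200 and 167 units in wild-type cultures (1.65 ± 0.17). Phlda1 differed by 1.45 ± 0.15 and Il17rd, an antagonist of FGF signalling also called Sef, by 0.80 ± 0.16. The second Il17rd probe set gave 0.63 ± 0.20.

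Dusp4, a phosphatase that turns off MAP kinases, went the other way, with 87.9, 108 and 121 units in Mll1-deleted cultures, against 912, 218 and 342 units in wild-type cultures (-1.96 ± 0.38), and wild-type mouse 818 far above the rest. The early genes Jun (0.46 ± 0.11) and Egr2 (0.78 ± 0.17) were higher, calls lost without mouse 489 or 870 for Jun and without mouse 489 for Egr2. Without mouse 489 the immediate early count was 1, and 3 without mouse 818. Of 18 p53 target genes 5 were higher and none lower (median 0.31), among them Btg2 and Cdkn1a, with 1 called without mouse 870, 2 without mouse 489, 814 or 818, 3 without mouse 862 and 8 without mouse 858.

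Signalling genes beyond Notch were mixed. Of 21 BMP and Id genes 4 were higher and 4 lower (median -0.02). The ligand Bmp6 (-1.38 ± 0.25), the signal transducer Smad9 (-0.81 ± 0.18) and Id4 (-0.88 ± 0.19), a dominant-negative partner of helix-loop-helix factors, were lower, and the ligand Bmp2, near the floor in wild-type cultures, was at least 2.12-fold higher in Mll1-deleted cultures. The Bmp2 call was lost without mouse 489 or 862. The count was 3 without mouse 489, 5 without mouse 818 and 4 without mouse 870, and the Id4 call was lost without mouse 489. Of 30 Wnt genes 8 were higher and 2 lower (median 0.18), and 6 were called without mouse 814 or 818. The lower ones were Dkk3 (-1.87 ± 0.24), a secreted Dickkopf-like protein, and the ligand Wnt7a (-1.12 ± 0.15). Of 12 hedgehog genes 3 were higher, including the co-receptor Cdon (1.35 ± 0.22) and the receptor and target Ptch1 (0.76 ± 0.21), and none lower (median 0.08). The Ptch1 call was lost without mouse 814, 818, 862 or 870, and 1 hedgehog gene was called without mouse 814, 818 or 862.

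Matrix and adhesion genes were more often higher than lower in Mll1-deleted cultures. Of 25 collagens and laminins 7 were higher and none lower, with a median of 0.79, and 15 were called without mouse 858 and 4 without mouse 818. Col8a1 read 1182, 1393 and 425 units in Mll1-deleted cultures, against 162, 104 and 177 units in wild-type cultures. Lamb1, a laminin chain of basement membranes, differed by 2.00 ± 0.38, Col12a1 by 1.70 ± 0.26 and Col11a1 by 0.98 ± 0.17. For the 20 matricellular genes, 4 were higher and 1 lower (median 0.37), among them Ccn3 (1.98 ± 0.19) and the proteoglycan Vcan (1.27 ± 0.25). Without mouse 858, 9 matricellular genes were called, and 3 without mouse 489 or 862. Relative to the wild-type mean, the matricellular list median was 0.36, 0.74 and -0.01 on the log2 scale in mice 489, 814 and 858. For collagens and laminins it was 0.59, 1.23 and 0.18, so both lists were highest in mouse 814 and lowest in mouse 858.

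Of 21 cadherins and protocadherins 8 were higher and none lower (median 0.40), and this count was 7 to 10 on leaving out 1 mouse. Cdh11, a mesenchymal cadherin, read 1516, 1978 and 1860 units in Mll1-deleted cultures, against 800, 1083 and 934 units in wild-type cultures (0.93 ± 0.14). The protocadherins Pcdh18 and Pcdh19 differed by 1.44 ± 0.24 and 1.29 ± 0.22. Of 15 integrins 5 were higher and none lower (median 0.36), led by Itga7, a laminin receptor (1.51 ± 0.23). Without mouse 818, 1 integrin was called, 2 without mouse 489, 862 or 870 and 3 without mouse 814.

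In the list of pericyte and fibroblast markers the mesenchymal transcription factors Prrx1 and Twist1 were higher. Prrx1 read 818, 752 and 798 units in Mll1-deleted cultures, against 217, 299 and 260 units in wild-type cultures (1.62 ± 0.14), and Twist1 differed by 1.00 ± 0.23, a call lost without mouse 862. Pdgfrb, the receptor of pericytes, was lower, with 147, 237 and 127 units in Mll1-deleted cultures, against 380, 439 and 613 units in wild-type cultures (-1.51 ± 0.24). The other 9 of the 12 genes were not called (list median 0.59). The list summed to 3352 to 8166 units in Mll1-deleted and 2336 to 3631 units in wild-type cultures. Rgs5 was between 21.0 and 28.1 units and Lum between 7.30 and 18.0 units in every array, Col1a1 was between 113 and 552 units, and Acta2 between 922 and 5061 units, highest in mouse 814. The part of such cells in the matrix result was not tested. Without mouse 858, 6 genes of this list were called.

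In the insulin-like growth factor system 4 of 13 genes were higher and 1 lower (median 0.27), including the binding proteins Igfbp7 (1.33 ± 0.26) and Igfbp3 (1.89 ± 0.39) and the ligand Igf1 (1.06 ± 0.22), with 3 called without mouse 489 or 870. Of 43 axon guidance genes 10 were higher and 6 lower (median 0.12). The receptor Ephb1 (0.95 ± 0.16) and the semaphorin Sema3d, near the floor in wild-type cultures and at least 2.12-fold higher in Mll1-deleted cultures, were among those higher, and Plxna4 was among those lower. Without mouse 870, 9 guidance genes were called, and 10 without mouse 818. Of 17 metalloproteases and their inhibitors 4 were higher and 2 lower (median 0.18), with Timp3 higher (0.96 ± 0.18) and Timp4 lower (-1.15 ± 0.25). The Timp4 call was lost without mouse 870, and the list had 2 calls without mouse 870 and 3 without mouse 489 or 814.

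Astrocyte genes were lower where called, with 1 exception. Of 24, 5 were lower and 1 higher, with a median of -0.28. Gja1, the gap junction protein connexin 43, read 5228, 5141 and 6904 units in Mll1-deleted cultures, against 8201, 8938 and 8712 units in wild-type cultures (-0.59 ± 0.11). Acsbg1 differed by -1.07 ± 0.22, Slc7a10, a serine transporter, by -0.62 ± 0.12, and Clu, the secreted chaperone clusterin, by -0.53 ± 0.12, the Clu call being lost without mouse 489 or 818. Gfap, the astrocyte filament, read 5917, 5448 and 5316 units in Mll1-deleted cultures, against 8211, 8394 and 6257 units in wild-type cultures and was not called (-0.44 ± 0.40). Without mouse 818, 3 astrocyte genes were called. Of 14 complement and reactive-astrocyte genes 3 were higher and 2 lower (median 0.21). Of these, 1 was called without any 1 of mice 489, 814, 818, 862 and 870, namely Steap4.

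Of 18 ependymal and cilium genes 5 were lower and none higher (median -0.47). Gmnc, which starts the multiciliated programme, read 58.1, 51.5 and 96.0 units in Mll1-deleted cultures, against 158, 118 and 143 units in wild-type cultures (-1.07 ± 0.21). Dnah5, a motor of ciliary arms, differed by -0.88 ± 0.18 and Rsph4a, a radial spoke protein, by -1.13 ± 0.26. The Dnah5 call was lost without mouse 489 and the Rsph4a call without mouse 489 or 814. Without mouse 489, 1 gene of the list was called, 2 without mouse 814, 3 without mouse 818 or 870 and 9 without mouse 858.

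Of 27 interferon-response and antigen presentation genes, 6 were lower, none was higher and 21 were not called (median -0.23). Ifit2, an interferon-induced RNA-binding protein, read 294, 282 and 317 units in Mll1-deleted cultures, against 679, 601 and 687 units in wild-type cultures (-1.14 ± 0.13). Ifit3 differed by -1.05 ± 0.22 and the class I molecule H2-K1 by -0.73 ± 0.19. The H2-K1 call was lost without mouse 489, 814, 818 or 862. The list had 2 calls without mouse 489, 814 or 818 and 3 without mouse 862 or 870.

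Genes of glucose and fat use were lower where called. Of 15 glycolysis genes 4 were lower and none higher (median -0.27), and of 15 fatty acid and ketone genes 5 were lower and none higher (median -0.27). Slc2a1, the glucose transporter of the blood-brain barrier and of glia, read 690, 699 and 1033 units in Mll1-deleted cultures, against 2126, 2257 and 2010 units in wild-type cultures (-1.43 ± 0.18). Bdh1, which interconverts ketone bodies, differed by -0.96 ± 0.20, and Acadm, a fatty acid dehydrogenase, by -0.53 ± 0.11. Without mouse 818 or 870, 1 glycolysis gene was called, and 2 without mouse 862, and 2 fatty acid genes were called without mouse 814 and 3 without mouse 862 or 870.

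Of 27 cholesterol and lipid synthesis genes 2 were higher, the regulator Srebf1 (0.64 ± 0.12) and the desaturase Scd1 (0.71 ± 0.16), and none lower (median 0.24). That is 7.41% of the list called, near the 8.74% over all genes. Of 21 amino acid and stress response genes 1 was higher, Ddit4, an inhibitor of mTOR signalling (1.14 ± 0.11), and 2 lower, Slc3a2 (-0.54 ± 0.11) and Herpud1 (-0.51 ± 0.12), with a list median of -0.17. The Scd1 call was lost without mouse 818, and the Herpud1 call without mouse 489 or 818. Without mouse 818, 1 lipid gene was called, and 5 stress genes without mouse 858.

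Few chromatin genes were called, beside 8.74% of all genes, and lists this short cannot show a lower share. None of 18 measured genes of MLL-type complexes was called (differences from -0.16 to 0.20, median 0.07), none of 14 DNA methylation genes and 1 of 19 polycomb genes, Cbx7 (-0.36 ± 0.11), a call lost without any 1 of mice 489, 814, 818, 862 and 870, on the day 2 arrays alone, with arrays set to the same median and with an intensity trend. Without mouse 858, 2 polycomb genes were called. None of 35 Hox genes, the classical targets of MLL1 in blood cells and embryos, was called. Their differences ran from -0.34 to 0.18 with a median of -0.11. The 35 Hox genes summed to 1349 to 1448 units in Mll1-deleted and 1423 to 1578 units in wild-type cultures. Of them, 8 were near the floor in both genotypes. For genes this dim, a lack of calls does not show that they were unchanged. Without mouse 862, 1 Hox gene was called.

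The genotype difference on day 2 was then set against that on the other days within the same fit. It differed from that on day 0 for 1666 genes (7.91%), 761 upward (3.61%) and 905 downward (4.29%), from that on day 1 for 129 genes (0.612%), 48 upward (0.228%) and 81 downward (0.384%), and from that on day 4 for 50 genes (0.237%), 6 upward (0.0285%) and 44 downward (0.209%). Upward changes made up 45.7% of those from day 0 and 37.2% of those from day 1, and 60.1% and 47.7% with all arrays set to the same median. These comparisons share the day 2 arrays and the mice. Without the replicate block the counts were 1012, 29 and 6 genes. Leaving out 1 mouse gave 710 (mouse 818) to 2311 genes (mouse 858) for day 0, 4 (mouse 818) to 441 genes (mouse 858) for day 1 and 2 (mouse 489) to 160 genes (mouse 858) for day 4.

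**Figure D4:**
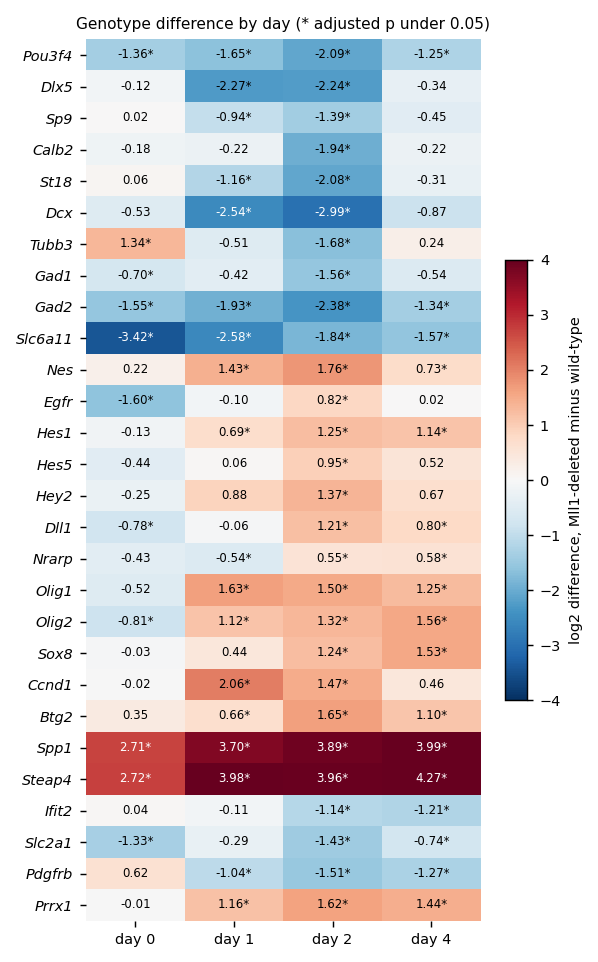
Log2 difference between Mll1-deleted and wild-type cultures for 28 genes on days 0, 1, 2 and 4, with 3 arrays per genotype and day, red above 0 and blue below, with the colours ending at 4 on either side. Asterisks mark an adjusted p under 0.05. Pou3f4 and Gad2 are below 0 and Spp1 and Steap4 above 0 on all 4 days. The Notch gene Dll1 was called lower on day 0 and higher on day 2. Hes1 was called higher on day 2 and was not called on day 0 (-0.13).

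The difference moved upward between day 0 and day 2 for 7 of the 16 Notch genes and downward for 1, and upward for 5 of the 13 oligodendrocyte progenitor genes and downward for none. Olig2 had mean levels of 888, 1026, 902 and 942 units on days 0, 1, 2 and 4 in Mll1-deleted cultures, against 1561, 470, 361 and 320 units in wild-type cultures. Its difference was -0.81 on day 0 and 1.32 on day 2 (change 2.14, limma adjusted p = 2.3e-06). The Mll1-deleted mean thus varied little over the days while the wild-type mean was highest on day 0. Nes had means of 2301, 2194, 1750 and 1451 units in Mll1-deleted cultures, against 1980, 816, 517 and 872 units in wild-type cultures, and its difference changed by 1.54 between day 0 and day 2.

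Dll1 had means of 67.4, 343, 323 and 189 units over the 4 days in Mll1-deleted cultures, against 115, 358, 139 and 109 units in wild-type cultures. The day 1 difference of -0.06 was not called, and the day 2 difference of 1.21 was larger than that of day 1 (change 1.27, limma adjusted p = 0.019). Egfr had means of 509, 2106, 1462 and 560 units in Mll1-deleted cultures, against 1539, 2259, 826 and 554 units in wild-type cultures. Its change from day 0 was 2.42, while that from day 1 was not called (0.93, limma adjusted p = 0.22).

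For 15 of the 30 neuroblast genes the difference moved downward between day 0 and day 2, and for 1 upward. Tubb3 had means of 558, 429, 675 and 1053 units in Mll1-deleted cultures, against 220, 612, 2154 and 890 units in wild-type cultures, so that the difference was 1.34 on day 0, -1.68 on day 2 and 0.24 on day 4. The change from day 4 was -1.92 (limma adjusted p = 0.049). Dcx had means of 24.1, 60.0, 279 and 754 units in Mll1-deleted cultures, against 34.7, 348, 2217 and 1376 units in wild-type cultures, and the change of its difference from day 4 to day 2 was not called (-2.12, limma adjusted p = 0.23). In both genes the wild-type mean was highest on day 2 and the Mll1-deleted mean on day 4.

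**Figure D5:**
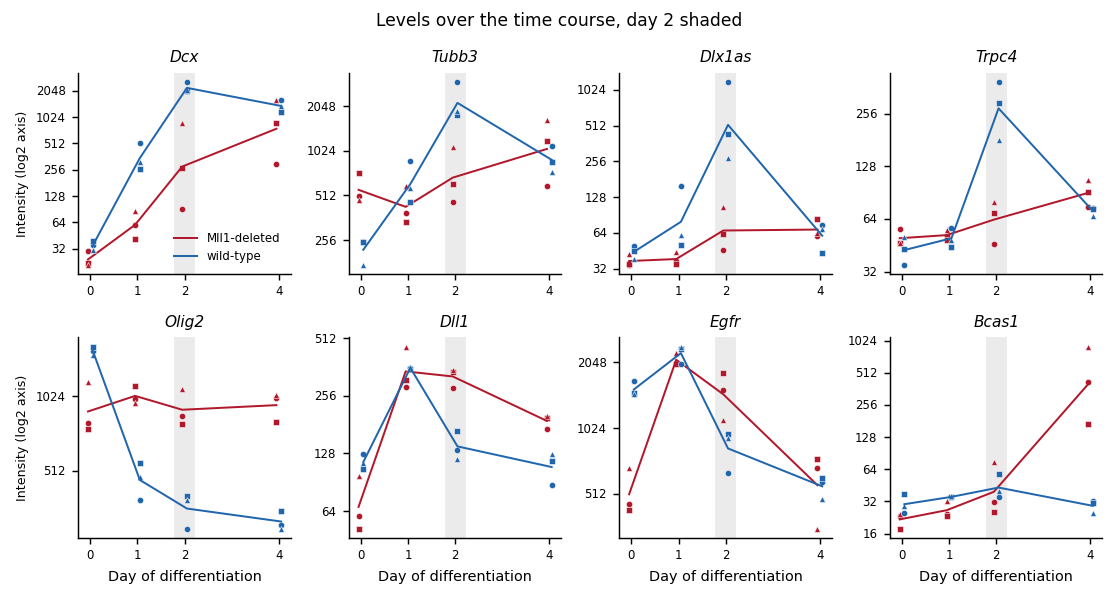
Intensity (log2 axis) on days 0, 1, 2 and 4 of 8 genes, 1 point per array, with lines through the means of log2 values for Mll1-deleted (red) and wild-type (blue) cultures and day 2 shaded. Wild-type means of Dlx1as and Trpc4 stand out on day 2 alone, and the Bcas1 difference was called on day 4 and not on day 0, 1 or 2.

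In Trpc4 and Dlx1as the wild-type mean was highest on day 2, by a wide margin over the other days. Trpc4, a cation channel chosen after its values were seen, had means of 49.7, 51.8, 63.4 and 90.2 units in Mll1-deleted cultures, against 42.5, 49.7, 275 and 71.2 units in wild-type cultures. Its day 2 difference (-2.12) was apart from those of day 0, day 1 and day 4 (changes of -2.34, -2.17 and -2.46, limma adjusted p = 2.1e-05, 0.00091 and 0.00034). Dlx1as had means of 37.1, 38.5, 67.0 and 68.3 units in Mll1-deleted cultures, against 44.3, 79.4, 520 and 60.6 units in wild-type cultures, with a change from day 4 of -3.13. The wild-type mice on day 2 ranged from 273 to 1188 units, mouse 818 being highest.

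Bcas1, a marker of newly formed myelinating oligodendrocytes that was also chosen after its values were seen, differed on another day. It had means of 21.7, 26.5, 39.4 and 400 units in Mll1-deleted cultures, against 30.1, 35.3, 43.2 and 29.1 units in wild-type cultures. The difference was not called on day 2 (-0.13 ± 0.37) and was 3.78 on day 4. Ifit2 had means of 309, 319, 297 and 281 units in Mll1-deleted cultures, against 301, 345, 654 and 648 units in wild-type cultures, and its day 2 difference was apart from that of day 1 (change -1.03, limma adjusted p = 0.0059) but not from that of day 4 (0.07).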

How the data were processed

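RNA of the cultures was hybridised to 24 Affymetrix mouse arrays, taken as 1 array per culture. The deposited table holds 1 intensity per probe set and array, made by the authors with RMA in Affymetrix Power Tools on mm9 annotation, per the submitters' processing notes. Versions are not given in the sources used here. The intensities run from 3.48 to 30298 and were taken as linear from these values.

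Of 28350 probe sets, 22232 have 1 gene symbol, 2980 several and 3138 none. Symbols were updated through RefSeq for 2127 probe sets. Where a gene had more than 1 probe set (576 genes) the brightest was used, leaving 21072 genes. limma 3.58.1, run in R 4.3.3, modelled the log2 values of the deposited intensities over all 24 arrays, with 8 group means, the mouse as a random block (correlation 0.165) and Benjamini-Hochberg adjustment over all genes. The same fit gave the day 2 difference minus that of each other day. Only the limma fit was tested on simulated data.

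The mice numbers in the labels pair arrays across days. After the group means were removed, arrays of the same mouse correlated at a median of 0.31 in Mll1-deleted and 0.216 in wild-type cultures, against -0.143 and -0.123 between mice. Genotypes are different mice and were compared unpaired. The labels give 1 array per mouse and day, and each array was taken as 1 culture.

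The 51 gene lists and the genes named were chosen with earlier results of these data known. Named by rule were the 12 largest differences each way among called genes without overlap and 4 called genes per list, with whole small families. A few genes that fit the rule are not reported here. Sp9, Prox1, Bcl11a, Bcl11b, Meis2, Scrt1, Sox2, Tubb3, Fxyd6, St8sia2, Dclk1, Nova1, Vim, Hes5, Notch1, Nrarp, Jag1, Mfng, Nr2e1, Thbs4, Sox10, Gpr17, Mki67, Gfap, Trpc4, Bcas1, Rgs5, Lum, Col1a1, Acta2, Pecam1, Aif1 and Csf1r fall outside that rule and were chosen after their values were seen. Promoter stretches come from RefSeq on GRCm38.p6, in which 15363 of the tested genes were matched.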

Additional observations from a re-analysis of the deposited data

Results flagged for a closer look

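For the genes here the genotype difference on day 2 was apart from that on another day by the interaction term of the limma fit at an adjusted p under 0.05. The value is the log2 difference on day 2 minus that on the other day, for the day with the smallest p. Comparisons share the day 2 arrays.

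Of the 30 neuroblast genes 15 moved downward against day 0 and 1 upward, and of the 24 interneuron genes 6 moved downward and none upward. The change was -2.12 for Dlx5, -1.41 for Sp9, -1.57 for Bcl11a, -1.03 for Scrt1, -1.76 for Calb2, -1.28 for Vax1, -2.14 for St18 and -0.99 for Myt1l among regulators and interneuron markers. Among neuroblast and axon genes it was -2.47 for Dcx, -3.02 for Tubb3, -2.87 for Shtn1, -2.13 for Nrxn3 and -2.21 for Plxna4. For the RNA-binding proteins Celf4 and Srrm4 it was -1.54 and -1.23, and for the synaptic, transporter and channel genes Slc32a1, Snap25, Syn1, Rab3c and Cacna1c it was -1.29, -1.14, -1.11, -0.91 and -2.0.

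Some neural genes moved upward against day 0. These were Tcf12 by 0.96, Nova1 by 1.64 and Dclk1 by 1.54. Slc6a11 and Gabra4, which were further below 0 on day 0, moved by 1.58 and 1.28. St8sia2 moved by -1.50 from a day 0 difference of 2.25.

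Of the stem cell list 6 of 19 genes moved upward against day 0 and 1 downward, and of the Notch list 7 of 16 upward and 1 downward, beside 3.61% upward and 4.29% downward over all genes. The change was 1.54 for Nes, 2.42 for Egfr, 1.99 for Dll1, 1.02 for Notch3, 1.38 for Hes1, 1.39 for Hes5, 1.62 for Hey2 and 0.97 for Fgfr3, and -1.70 for Prom1. Olig1 moved by 2.02, Olig2 by 2.14, Sox8 by 1.27 and Sox3 by 1.05. The cyclin Ccnd2, whose smallest p was against day 4, moved downward against day 0 too, by -0.49. Upward changes were those of Ccnd1 by 1.49, Ccne1 by 0.90, Phlda1 by 1.42, Btg2 by 1.30, Egr2 by 1.23 and Jun by 0.77.

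Further changes against day 0 were 1.31 for Shisa3, 1.30 for Lrrc4c, 2.19 for Bche, 1.75 for Sprr1a, 1.24 for Cdon, 1.51 for Ddit4 and 1.63 for Prrx1, all upward. Downward were Cyp2d22 by -1.33, Traf1 by -2.40, Id4 by -1.72, Bmp6 by -1.34, Smad9 by -1.02 and Pdgfrb by -2.13. Also downward were the changes of Gja1 (-0.86), Clu (-0.87), Gmnc (-1.45), Ifit2 (-1.18), Ifit3 (-1.26), Acadm (-0.44) and Herpud1 (-0.92).

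Against day 1, Gad1 moved by -1.14, Dusp4 by -2.63, Slc2a1 by -1.14 and Nrarp by 1.09, and Vcan moved by -1.58 from a day 1 difference of 2.85. Against day 4, Dlx1as moved by -3.13, Trpc4 by -2.46, Prox1 by -1.39, Igfbpl1 by -0.84, Gria1 by -1.62 and Ccnd2 by -0.83. Sema3d and Bcas1, with differences of 2.66 and 3.78 on day 4, moved by -1.52 and -3.91.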

How the results depend on the processing

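Of the 15 alternatives, some changed the scaling, the added offset, the filters, the probe set rule, the prior, the block or the arrays fitted, and 6 left out 1 mouse each. The day 2 count of 1842 genes ranged from 911 to 2259 when 1 mouse was left out, that against day 0 (1666 genes) from 710 to 2311, that against day 1 (129 genes) from 4 to 441 and that against day 4 (50 genes) from 2 to 160. Of 903 list genes, 230 were called, and 136 to 287 without 1 mouse. Without the replicate block that pairs the days of a mouse the counts were 1723, 1012, 29 and 6 genes, and leaving out dim genes gave 91 genes against day 4. Differences that changed sign were those of genes that were not called: over the fits without 1 mouse Abat ran from -0.18 to 0.021 (above 0 without mouse 489), Gpr17 from -0.44 (without mouse 858) to 0.91, Mki67 from -0.11 to 0.23 (below 0 without mouse 814 or 870), Xist from -2.44 to 0.51 (above 0 without mouse 858) and Bcas1 from -0.60 to 0.17 (above 0 without mouse 489, 814 or 862). The cause was not tested. With 3 arrays per group and 4269 genes near the floor in both genotypes, many small differences and those of dim genes may have been missed.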
